A study of Rattus norvegicus with 8 samples.

Results

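The genes of nuclear transport described here are 44 of the 14506 genes that had a single symbol on 1-colour Affymetrix arrays of perfused rat liver. They were chosen by name: nucleoporins with a Nup number, importin alpha and beta genes (Kpna, Kpnb), importins (Ipo), transportins (Tnpo) and exportins (Xpo), with Tpr, Ranbp2, Cse1l and Rae1. The mean over all arrays decided which probe set stood for a gene that had more than 1, which concerned Kpna2 alone. By role, 21 members build the pore, 21 are transport receptors, and 2 are further matches of the name, Nup62cl, a relative of Nup62, and Nup50-ps1, a pseudogene of Nup50. Of the genes sought by role, Nup133, Nup43, Nup210l, Nup214, Kpna7, Ipo5, Ipo8 and Ipo11 were not analysed here.

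Livers of male Wistar rats aged 6 to 10 weeks were perfused with Krebs-Henseleit buffer, and all 8 arrays carry the time point of 120 min. For both groups the longest perfusion time given is 180 min. In the normoosmotic group (4 arrays) the buffer had 305 mosm/L and in the hypoosmotic group (4 arrays) 225 mosm/L, a difference that draws water into cells. No genetic change or drug is named in the labels for either group. They do not state whether each array had a liver of its own. If arrays of a group shared a liver, the spread behind the p-values would be technical in part or in full.

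The nuclear pore is a ring of nucleoporins set in the nuclear envelope. An outer and an inner ring form its scaffold, nucleoporins with phenylalanine-glycine repeats fill the central channel, filaments reach into the cytoplasm, and a basket hangs on the nuclear side. Importins carry proteins in and exportins carry proteins and some RNAs out, and the small GTPase Ran, bound to GTP in the nucleus, makes importins release and exportins bind their cargo. Hepatocytes, the main cells of liver, use this machinery for transcription factors, ribosomal subunits and messenger RNA alike.

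Under hypoosmotic perfusion 4 members fell and 1 rose. The importin alpha gene Kpna5 fell to 0.339 of its normoosmotic level (95% interval 0.243 to 0.472), the central channel genes Nup58 and Nup54 fell to 0.615 (0.519 to 0.728) and 0.683 (0.583 to 0.801), and the basket gene Nup153 fell to 0.661 (0.546 to 0.80). The exportin gene Xpo1 rose 1.69-fold (1.35 to 2.12). These calls rest on limma's moderated test with Benjamini-Hochberg adjustment over all 14506 genes, at an adjusted p under 0.05, which 1.98% of them passed. Lower calls made up 9.09% of the members against 1.42% of all genes, and higher calls 2.27% against 0.558%. The members were picked with results of these data known, so these shares describe them and are no test. In tissue RNA, fewer cells of a type and less RNA per cell cannot be told apart.

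The promoters of the called genes are shown because they lie where transcription of these messages begins. Of the 44 members, 37 had an entry in the RefSeq promoter table of the rat assembly GRCr8, which gives 250 bases before and 50 after each gene's start. Capitals mark matches to any of 6 motifs searched on both strands, the E-box, GC box, ETS core, CCAAT box, NRF1 core and NFAT core, whose letters stand with their counts. Kpna5 lies at chr20:31365435-31365734 on the plus strand, Nup58 at chr15:38583116-38583415 on the minus strand, Nup54 at chr14:15901784-15902083, Nup153 at chr17:18178206-18178505 and Xpo1 at chr14:101434200-101434499, these last on the plus strand.
Kpna5: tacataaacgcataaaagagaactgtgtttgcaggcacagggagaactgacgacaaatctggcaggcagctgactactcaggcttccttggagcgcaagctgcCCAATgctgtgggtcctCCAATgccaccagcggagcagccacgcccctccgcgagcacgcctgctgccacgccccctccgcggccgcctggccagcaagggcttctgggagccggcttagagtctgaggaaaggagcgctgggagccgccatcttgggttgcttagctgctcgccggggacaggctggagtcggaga
Nup58: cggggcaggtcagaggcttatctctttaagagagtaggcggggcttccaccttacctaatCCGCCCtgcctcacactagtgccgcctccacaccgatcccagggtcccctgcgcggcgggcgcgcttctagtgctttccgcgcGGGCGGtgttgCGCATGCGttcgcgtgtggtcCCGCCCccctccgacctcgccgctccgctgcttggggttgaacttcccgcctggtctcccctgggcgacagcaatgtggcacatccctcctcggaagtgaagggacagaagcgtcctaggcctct
Nup54: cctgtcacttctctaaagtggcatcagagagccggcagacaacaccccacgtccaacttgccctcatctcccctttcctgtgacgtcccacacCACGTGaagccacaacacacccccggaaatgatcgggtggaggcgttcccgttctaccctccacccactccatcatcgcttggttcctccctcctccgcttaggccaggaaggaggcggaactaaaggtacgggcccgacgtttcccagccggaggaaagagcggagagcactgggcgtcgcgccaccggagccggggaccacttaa
Nup153: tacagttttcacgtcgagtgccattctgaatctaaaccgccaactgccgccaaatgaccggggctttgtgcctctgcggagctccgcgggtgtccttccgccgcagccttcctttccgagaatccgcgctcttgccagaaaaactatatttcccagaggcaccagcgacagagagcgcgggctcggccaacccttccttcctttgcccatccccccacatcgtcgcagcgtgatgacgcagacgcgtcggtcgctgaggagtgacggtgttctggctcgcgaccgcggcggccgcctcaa
Xpo1: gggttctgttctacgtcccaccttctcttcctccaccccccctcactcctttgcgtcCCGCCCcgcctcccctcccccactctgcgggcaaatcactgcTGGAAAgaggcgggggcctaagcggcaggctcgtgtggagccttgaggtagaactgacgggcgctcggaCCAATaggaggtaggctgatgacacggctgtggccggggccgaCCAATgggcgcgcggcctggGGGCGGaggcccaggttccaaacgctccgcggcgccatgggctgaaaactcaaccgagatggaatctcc

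Kpna5 held 2 CCAAT matches, beginning 147 and 130 bases before the start. Nup58 held 3 GC box matches and the NRF1 core once on each strand, and those overlapped in a single palindrome. Nup54 held an E-box 157 bases before the start. Xpo1 held 2 GC boxes, 2 CCAAT matches 82 and 39 bases before the start, and 1 NFAT core. The window of Nup153 held 0 matches, so none of the 6 motifs stood in all 4 genes that fell.

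Over the members, the GC box, GGGCGG, stood in 24 of 37 promoters (64.9%), against 34.9% of all 27457 promoters of this length and 50.2% of those of the measured genes. The CCAAT box was found in 18 promoters (48.6%, against 37.7% and 38.4% in these same sets). The E-box, CACGTG, was found in 6 promoters of members (16.2%, against 6.65% and 7.88%). The ETS core, CCGGAAG, was likewise found in 6 promoters of members (16.2%, against 9.22% and 13.0%). The NRF1 core, GCATGCG, was found in 4 promoters of members (10.8%, against 3.54% and 4.77%). The NFAT core, TGGAAA, was found in 3 promoters of members (8.11%, against 22.4% and 19.5%). The members' promoters were also rich in CpG, with a median ratio of observed to chance CpG of 0.893, where all promoters had 0.417 and those of measured genes 0.658. A match is a run of letters, not a known binding site.

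**Figure D1:**
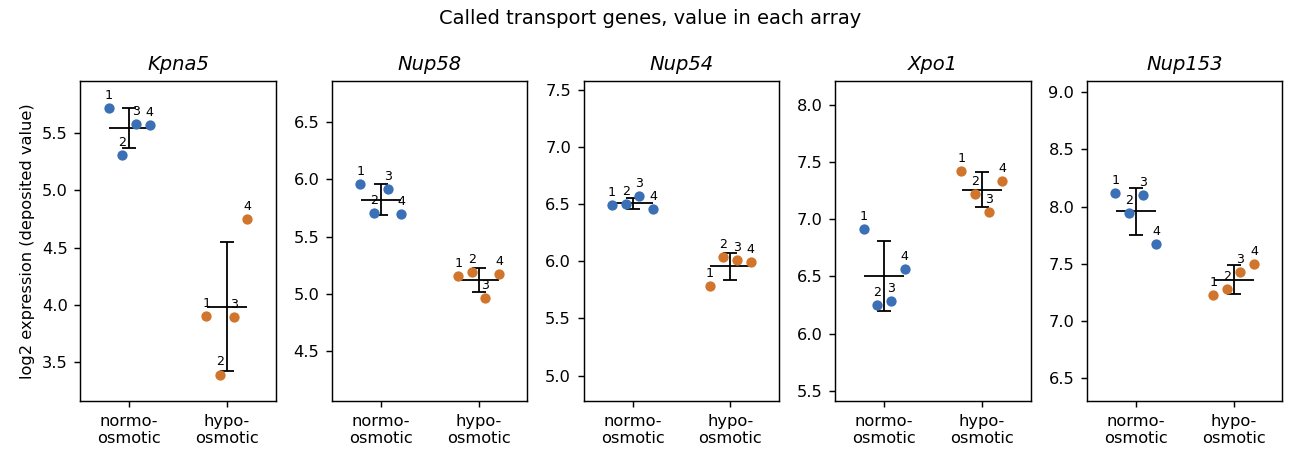
Deposited log2 expression of the 5 called genes on each array (points, numbered by replicate), with the mean and SD of the 4 arrays of each group as a bar. The axes start at different levels but span equally many log2 units. In each panel the groups lie apart, with Kpna5, Nup58, Nup54 and Nup153 lower and Xpo1 higher in the hypoosmotic samples.

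Importin alpha proteins read the classical import signal of a cargo and tie it to importin beta. Kpna5 (probe set 10830088) belongs to the subfamily that also holds Kpna1 and Kpna6. It read 5.72, 5.31, 5.58 and 5.57 log2 units in normoosmotic replicates 1 to 4 and 3.90, 3.39, 3.89 and 4.75 in hypoosmotic replicates 1 to 4. The groups did not overlap, and hypoosmotic replicate 4 lay nearest to the normoosmotic range. The log2 change was −1.56 with a standard error of 0.22 (limma, adjusted p = 0.00421). Its spread was wider in hypoosmotic samples, with an SD of 0.56 against 0.17. The fall was 1.82 without hypoosmotic replicate 4 and 1.37 without hypoosmotic replicate 2, and the call held without any single array.

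The other 5 importin alpha genes also had changes below 0 and none passed the test. Kpna4 had a log2 change of −0.44 (95% interval −0.68 to −0.20, adjusted p = 0.0651) and its groups did not overlap, with 8.0 to 8.10 in normoosmotic and 7.50 to 7.86 in hypoosmotic samples. It passed without hypoosmotic replicate 4 (adjusted p = 0.0322). When any other single array was left out it did not pass (limma, adjusted p from 0.0967 to 0.178). Kpna1 had a change of −0.44 (−0.71 to −0.17, adjusted p = 0.0977) and Kpna2, a gene that dividing cells express highly, one of −0.26 (−0.57 to 0.05). The 2 probe sets of Kpna2 had log2 changes of −0.26 and −0.27. Kpna6 and Kpna3 lay near 0, at −0.07 (−0.31 to 0.18) and −0.03 (−0.28 to 0.23).

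Nup58, Nup54 and Nup62 form the complex that lines the central channel with repeats that cargo carriers touch. Nup58 (probe set 10784307) read 5.96, 5.71, 5.92 and 5.70 in normoosmotic replicates 1 to 4 and 5.16, 5.19, 4.96 and 5.17 in hypoosmotic ones. A gap of 0.51 log2 units separated the groups. Nup58 fell by 0.70 ± 0.11 (SE; limma, adjusted p = 0.0087) and was called without any single array. Nup54 (probe set 10771635) read 6.49, 6.50, 6.57 and 6.46 in normoosmotic and 5.78, 6.04, 6.01 and 5.99 in hypoosmotic samples. All normoosmotic values were within 0.11 log2 units of each other, and the groups lay 0.42 apart. Nup54 fell by 0.55 ± 0.11 (adjusted p = 0.0199), but the adjusted p was 0.0549 and 0.0745 without normoosmotic replicates 1 and 3, and 0.0563 and 0.0558 without hypoosmotic replicates 1 and 2. Nup62, their partner, had a change of −0.18 (95% interval −0.47 to 0.10, adjusted p = 0.596), with overlapping groups.

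The basket on the nuclear side holds Nup153, which binds importins and lamins, Nup50, which helps importin alpha shed its cargo, and the scaffold protein Tpr. Nup153 (probe set 10794511) read 8.12, 7.94, 8.10 and 7.67 in normoosmotic and 7.23, 7.28, 7.43 and 7.50 in hypoosmotic samples. The groups did not overlap, and normoosmotic replicate 4 was the lowest of its group. Nup153 fell by 0.60 ± 0.13 (SE; limma, adjusted p = 0.0307). This call was lost without any 1 of 6 arrays: the adjusted p was 0.0955, 0.0607 and 0.1 without normoosmotic replicates 1, 2 and 3, and 0.083, 0.108 and 0.06 without hypoosmotic replicates 1, 2 and 3. Nup50 had a change of −0.37 (95% interval −0.62 to −0.12, adjusted p = 0.126), with groups that did not overlap, and Tpr one of −0.28 (−0.56 to −0.01, adjusted p = 0.327).

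Among the cytoplasmic filaments, Ranbp2, a large nucleoporin that anchors the Ran regulator Rangap1, read 7.86 to 8.11 in normoosmotic and 7.48 to 7.67 in hypoosmotic samples. Its groups lay apart, with a change of −0.43 (95% interval −0.66 to −0.20), and it did not pass the test (limma, adjusted p = 0.0629). Nup88 had a change of −0.56 (−0.90 to −0.21, adjusted p = 0.0962), with 4.69 to 5.36 in hypoosmotic against 5.25 to 5.82 in normoosmotic samples. Nup42, a docking site of RNA export factors, had a change of 0.21 (−0.15 to 0.56) and overlapping groups. Nup98, which sits on both faces of the pore, had a change of −0.39 (−0.65 to −0.14, adjusted p = 0.121) and groups that lay 0.03 apart. Its partner in messenger RNA export, Rae1, had one of −0.13 (−0.37 to 0.11).

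In the scaffold 0 of 9 ring genes were called by limma (against 1.98% of all genes). Of the 5 inner ring genes 2 were lower at an unadjusted p under 0.05 (40%, against 7.97% of all genes), and of the 4 outer ring genes 0 were. The 5 inner ring genes all had changes below 0, from −0.32 for Nup188 (95% interval −0.58 to −0.06, adjusted p = 0.231) to −0.23 for Nup155 (−0.55 to 0.09), with Nup35, Nup205 and Nup93 between them. The 4 outer ring genes lay on both sides of 0. Nup85 was at −0.12 (−0.36 to 0.12, adjusted p = 0.681), Nup160 at −0.06 (−0.30 to 0.19), Nup107 at 0.10 (−0.18 to 0.38) and Nup37 at 0.27 (−0.31 to 0.85). Nup37 varied widely within both groups, from 3.89 to 4.95 in normoosmotic and from 4.15 to 5.45 in hypoosmotic samples. Nup210, a membrane anchor of the pore, had a change of 0.19 (−0.19 to 0.57).

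**Figure D2:**
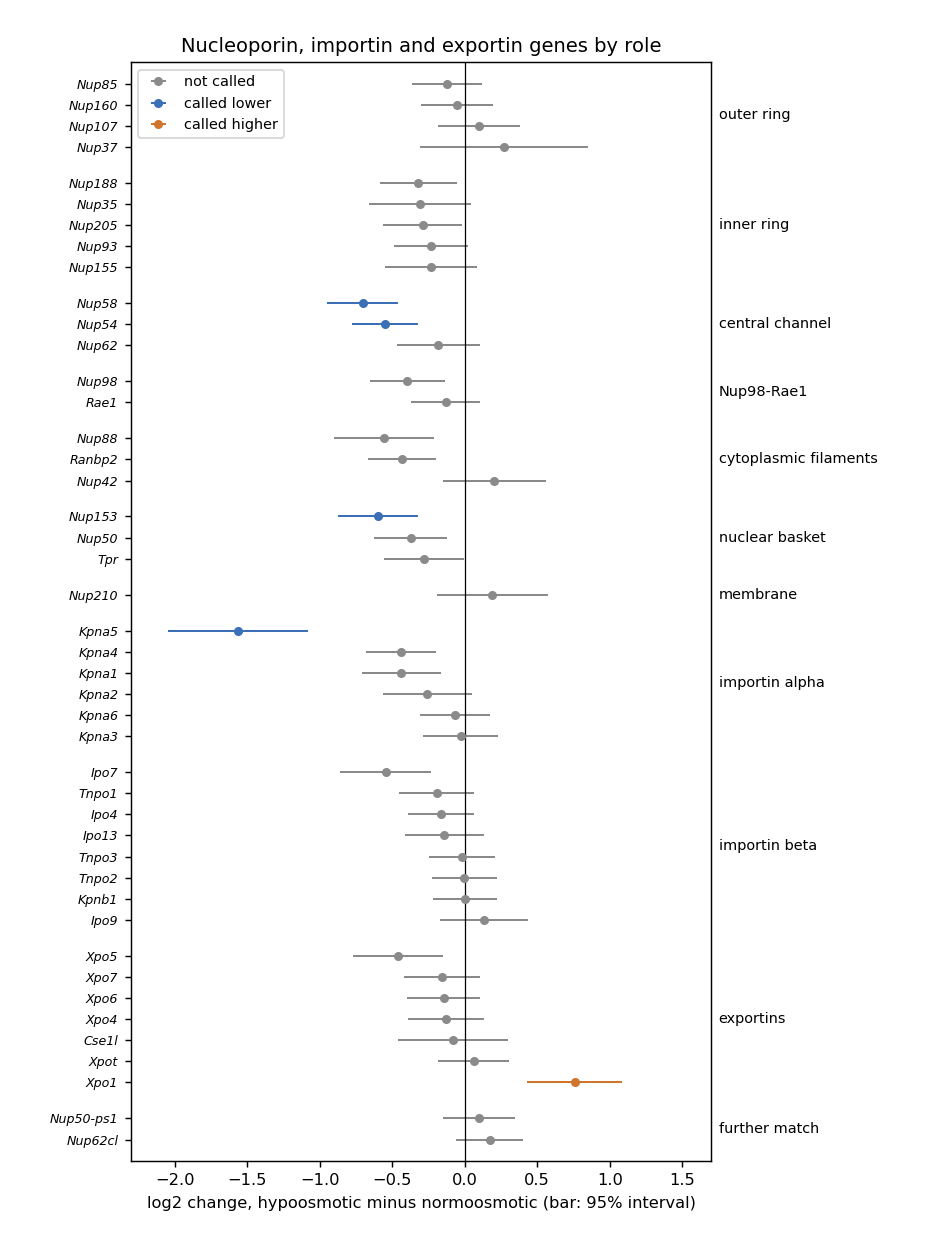
Log2 change (hypoosmotic minus normoosmotic) of the 44 members with the 95% interval of the limma fit, grouped by role. Blue marks genes called lower, orange the gene called higher and grey the 39 that were not called. All 5 inner ring and all 6 importin alpha genes have points left of 0, but only Kpna5 among them passed the test.

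Of the exportins, Xpo1 is the general carrier of proteins with a leucine-rich export signal. Xpo1 (probe set 10774472) read 6.91, 6.25, 6.28 and 6.56 in normoosmotic and 7.42, 7.22, 7.06 and 7.33 in hypoosmotic samples. Every hypoosmotic value lay above every normoosmotic one, with normoosmotic replicate 1 nearest to them. Xpo1 rose by 0.76 ± 0.15 (SE; limma, adjusted p = 0.0229). The adjusted p was 0.0583 and 0.0812 without normoosmotic replicates 2 and 3, and 0.0635 and 0.0736 without hypoosmotic replicates 1 and 2.

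The other 6 exportin genes were not called. Xpo5, the exporter of microRNA precursors, had a change of −0.46 (95% interval −0.77 to −0.15, adjusted p = 0.132) and overlapped between groups by 0.05 log2 units. Xpo7, Xpo6 and Xpo4 had changes of −0.16, −0.14 and −0.13, and Cse1l, which returns importin alpha to the cytoplasm, one of −0.08 (−0.46 to 0.30). Xpot, the exporter of transfer RNA, was at 0.06 (−0.18 to 0.31). The difference between Xpo1 and the other exportins was not tested.

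Importin beta and its relatives carry cargo through the channel, and 0 of these 8 genes were called by limma (against 1.98% of all genes). At an unadjusted p under 0.05, 1 was lower (12.5%, against 7.97% of all genes). That gene was Ipo7, a carrier of ribosomal proteins, which read 8.21, 7.61, 8.0 and 7.74 in normoosmotic and 7.23, 7.39, 7.19 and 7.57 in hypoosmotic samples. Its groups lay 0.04 apart, with a change of −0.54 (95% interval −0.86 to −0.23, adjusted p = 0.0747). Kpnb1, importin beta itself, had a change of 0.00 (−0.22 to 0.22), Tnpo2 one of 0.00 (−0.22 to 0.22) and Tnpo3, the carrier of splicing factors rich in serine and arginine, one of −0.02 (−0.25 to 0.21). These intervals leave room for changes of up to about 0.25 log2 units either way. Tnpo1, Ipo4 and Ipo13 lay between −0.19 and −0.14, and Ipo9 was at 0.13 (−0.17 to 0.44).

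Nup62cl and Nup50-ps1 were dim and belonged to the dimmest 25% of genes, unlike the other 42 members, at 1.81 to 2.19 and 2.66 to 3.03 over all arrays. Neither was called, with changes of 0.17 (95% interval −0.06 to 0.40) and 0.10 (−0.15 to 0.35). Probes of Nup50-ps1 may also read Nup50, since a pseudogene can be near-identical to its parent gene.

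Counted together, 34 of the 44 members had a log2 change below 0, against 41.3% of all genes, and the median change was −0.16 against 0.04. The pore genes had a median of −0.28 with 17 of 21 below 0, and the receptor genes a median of −0.14, also with 17 of 21 below 0. In 9 members the groups did not overlap and hypoosmotic samples were lower (20.5%, against 5.05% of all genes): the 4 that fell, and Ranbp2, Kpna4, Ipo7, Nup50 and Nup98. In 1 member, Xpo1, they did not overlap and hypoosmotic samples were higher (2.27%, against 3.21%). At an unadjusted p under 0.05, 15 members were lower and 1 was higher, against 7.97% and 6.6% of all genes. Of the members 18 lay in the brightest 20% of genes, where 3.17% of all genes were called lower, against 0% in the dimmest 20%. Of those 18 members 1 was called lower. In the next 20% of genes by level 2 of 12 members were called lower (2.9% of all genes there). In the middle 20% it was 1 of 11 members (0.862% of all genes there).

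**Figure D3:**
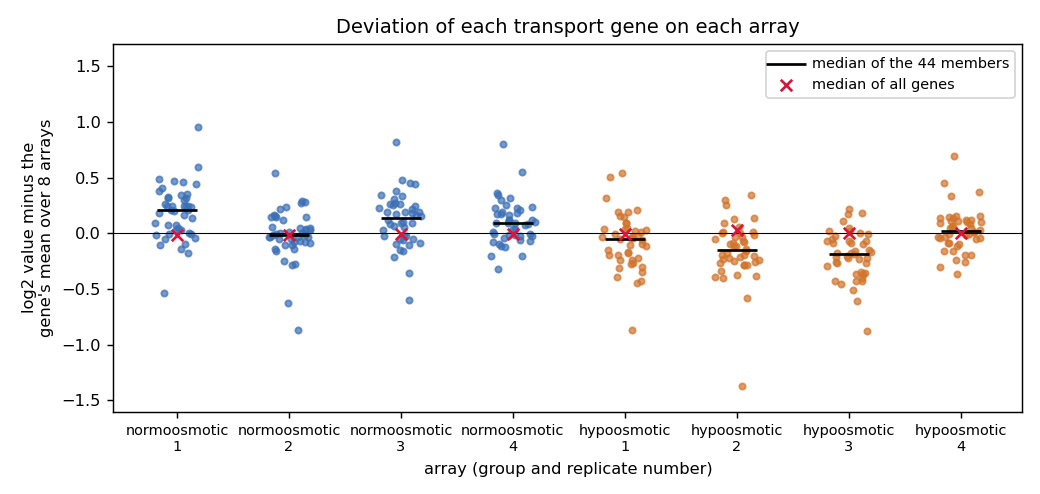
Log2 value of each of the 44 members on each array minus the mean of that gene over the 8 arrays (points), with the median over members (bar) and over all genes (cross). The median over members was highest on normoosmotic replicate 1 (0.21) and lowest on hypoosmotic replicate 3 (−0.18), and the median of all genes stayed between −0.02 and 0.03.

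The members did not move alike on all arrays of a group. Their median deviation from the mean of each gene was 0.21, −0.01, 0.14 and 0.09 on normoosmotic replicates 1 to 4, and −0.05, −0.15, −0.18 and 0.02 on hypoosmotic replicates 1 to 4. Hypoosmotic replicate 4 thus stood above normoosmotic replicate 2, and 24 of its 44 values lay above the gene's mean. On hypoosmotic replicate 3, 36 of 44 lay below it.

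Clock genes also differed between arrays of one group. A clock score (Bmal1 and Npas2 averaged, less the average of Dbp and Per3) was −2.81, 1.26, −3.38 and 1.49 on normoosmotic replicates 1 to 4 and 1.38, 1.09, −0.52 and −0.06 on the hypoosmotic ones. With this score as a covariate, Kpna5 and Nup58 kept the call (limma, adjusted p = 0.0154 and 0.0337), while Nup54 (0.0664), Nup153 (0.0861) and Xpo1 (0.0583) did not. The changes with the covariate were −1.47 for Kpna5, −0.65 for Nup58, −0.52 for Nup54, −0.50 for Nup153 and 0.78 for Xpo1, so that of Xpo1 was slightly above its value without the covariate and the others were nearer to 0. Without both normoosmotic replicates 1 and 3, an alternative chosen after seeing the data, 0 members were called by limma (8 lower and 1 higher at an unadjusted p under 0.05) and 21 of all genes were. The changes were then −1.46 for Kpna5, −0.58 for Nup58, −0.52 for Nup54, −0.45 for Nup153 and 0.85 for Xpo1.

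Markers of other cell types were measured on the same arrays. The 7 hepatocyte markers, albumin among them, averaged 11.84 to 12.02 log2 units on every array, as the tissue label has it, and 0 were called (limma; 0 at an unadjusted p under 0.05). Of 8 macrophage, 3 sinusoidal endothelial, 7 stellate, 4 bile duct, 5 lymphocyte and 4 neutrophil markers 0 were called (limma; 0 at an unadjusted p under 0.05), with medians between −0.04 and 0.20. The erythroid genes Hbb and Alas2 had changes of −0.85 (adjusted p = 0.279) and −0.23 (0.337), both with an unadjusted p under 0.05. The 7 markers of dividing cells averaged 4.22 to 4.56 on normoosmotic arrays and 5.02, 4.45, 4.45 and 4.43 on hypoosmotic replicates 1 to 4. Only hypoosmotic replicate 1 lay outside the normoosmotic range. By limma 0 of the 7 were called, and 1 was higher at an unadjusted p under 0.05 (14.3%, against 6.6% of all genes). Their median change was 0.16, from −0.04 for Ccna2 to 0.81 for Rrm2, which came closest to a call (adjusted p = 0.0549). The part of these cells in the changes of the members was not tested.

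Other genes of the pathway, listed by function as 67 symbols, numbered 52 measured genes. Of these 4 fell (7.69%, against 1.42% of all genes) and 0 rose (against 0.558%) by limma. At an unadjusted p under 0.05, 9 were lower (17.3%, against 7.97% of all genes) and 2 higher (3.85%, against 6.6%). Their median change was −0.09, against 0.04 over all genes. In the Ran system, where 6 of 11 listed genes were measured, 1 fell (16.7%, against 1.42% of all genes). That gene was Rangap1, the activator of GTP hydrolysis by Ran at the cytoplasmic filaments. Rangap1 read 6.73, 6.80, 7.01 and 6.66 in normoosmotic and 6.30, 6.07, 6.33 and 6.19 in hypoosmotic samples, a fall of 0.58 ± 0.12 (SE; adjusted p = 0.0237). Ran itself had a change of −0.04 (95% interval −0.32 to 0.25).

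Of 20 genes of messenger RNA export 2 fell (10%, against 1.42% of all genes). Nxf1, the main receptor that takes messenger RNA through the pore, read 7.62, 7.48, 7.59 and 7.56 in normoosmotic and 7.07, 7.09, 6.84 and 7.27 in hypoosmotic samples, a fall of 0.50 ± 0.12 (SE; limma, adjusted p = 0.0465). Zc3h11a, a zinc finger protein of messenger RNA export, fell by 0.50 ± 0.11 (limma, adjusted p = 0.0434). Of the 20 genes, 17 had changes below 0 (85%, against 41.3% of all genes). Among the 7 cargo adaptors and carriers outside the name rule, 1 fell (14.3%, against 1.42% of all genes). That gene, Akirin2, which helps import proteasomes, fell by 0.63 ± 0.14 (limma, adjusted p = 0.0365). Of the 5 other pore genes and the 14 genes of the nuclear envelope 0 were called by limma. At an unadjusted p under 0.05, 1 gene of the nuclear envelope, Lmna, was higher (7.14%, against 6.6% of all genes). Sec13, an outer ring protein shared with vesicle coats, had a change of 0.21 (95% interval −0.05 to 0.47) and Lmna, the gene of lamins A and C, one of 0.33 (0.06 to 0.59, adjusted p = 0.232). When 1 array was left out, between 0 and 5 of the 52 were called lower by limma (7 to 16 at an unadjusted p under 0.05). Over these fits 0.386% to 1.98% of all genes were called lower, against 1.42% with all arrays. Of the 52, 0 were called lower without normoosmotic replicates 1, 2 or 3 or hypoosmotic replicates 1 or 2. Without normoosmotic replicate 4 or hypoosmotic replicate 3 it was 1.

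**Figure D4:**
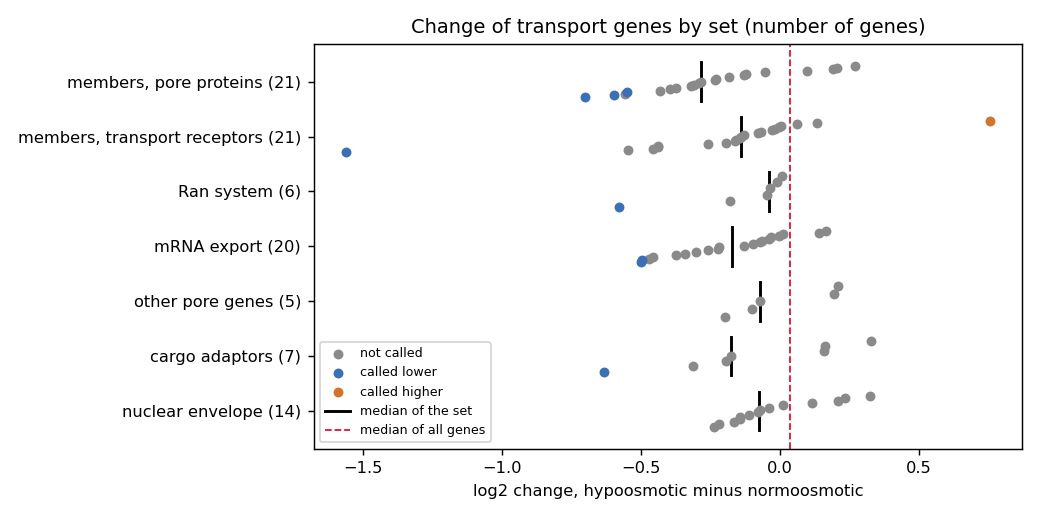
Log2 change (hypoosmotic minus normoosmotic) of the 21 pore genes and 21 receptor genes and of 5 other lists of transport genes; each point is a gene, the black bar the median of its set and the dashed line the median of all genes. The medians of all 7 sets lie left of the dashed line, from −0.28 for the pore genes to −0.04 for the Ran system.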

How the data were processed

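RNA was labelled with biotin for Affymetrix arrays, per the labels' protocols. The submitters' processing notes name Transcriptome Analysis Console 4.0. How probes were summarised, corrected for background and normalized is not given in the sources used here. Each deposited column holds the authors' log2 values, a scale read from their range (0.88 to 13.26), for 27596 probe sets; array medians lay between 4.05 and 4.16. No detection call was used, so low values can be background, and 4 arrays per group limit the precision. Of the probe sets, 15310 had 1 symbol in the platform annotation, 323 several and 11963 none. Of the 15310, 15279 had a gene ID found in the RefSeq table of GRCr8 and took the symbol given there, whether or not it differed.

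The groups were compared with limma 3.58.1 in R 4.3.3 (lmFit, eBayes, two-sided, group as the only term) over 14506 genes with Benjamini-Hochberg adjustment. On data simulated with the SD of each gene and independent normal noise, 32.2% of changes of 0.5 log2 units, 89.7% of 1 and 98.8% of 1.5 were recovered. Differences that many genes of an array share were not simulated, so recovery in the real data may differ. Members and lists were chosen with earlier results of these data known. Named with values were called members, the 6 largest changes each way, the smallest p in each role and list, and other members by role. Other scalings, priors, a block, covariates and left-out arrays were alternatives. No protein table was used, so protein lengths and identities are not analysed here.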

Additional observations from a re-analysis of the deposited data

Results flagged for a closer look

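In 7 of 108 groups of 4 arrays (the 44 members and 10 other named genes in both buffers), 1 array lay far from the other 3 by Dixon's criterion, where chance flags about 1 group in 20. Of the 88 groups of members 4 were among them. Nup58 read 4.96 on hypoosmotic replicate 3, with the nearest value at 5.16, and Nup50-ps1 read 3.03 on hypoosmotic replicate 1, with the nearest at 2.84. Kpna1 read 6.82 on normoosmotic replicate 2, with the nearest at 7.19, and Nup160 read 5.73 on normoosmotic replicate 1, with the nearest at 5.47. Among the other genes, Akirin2 read 7.10 on normoosmotic replicate 3, with the nearest at 6.85, Sec13 read 7.98 on hypoosmotic replicate 3, with the nearest at 7.84, and Ran read 7.43 on normoosmotic replicate 1, with the nearest at 7.80.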

How the results depend on the processing

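The counts were 4 members lower, 1 higher, 4 other transport genes lower, 0 higher and 287 of all genes. Leaving out 1 array gave 2 to 5, 0 to 1, 0 to 5, 0 and 81 to 365. With the clock score as a covariate they were 2, 0, 0, 0 and 92 (limma; 14 members lower, 1 member higher and 9 other genes lower at an unadjusted p under 0.05). Without both normoosmotic replicates 1 and 3 they were 0, 0, 0, 0 and 21 (limma; 8, 1, 7 and 0 at an unadjusted p under 0.05). At an adjusted p under 0.1 they were 9 members lower and 601 of all genes. With the replicate number as a block they were 3 members lower, 2 other transport genes lower and 256 of all genes; Nup153 lost its call (0.059). The labels do not state that equal numbers mark shared animals, so the numbers were not taken as pairs. Deviations of same-numbered arrays had correlations of 0.0276 to 0.173, and those of differently numbered arrays lay between −0.302 and 0.206. These ranges overlap and do not settle whether the arrays were paired.

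The number of members below 0 stayed between 30 and 35 over 18 alternatives. Ranbp2 passed with the trended and robust prior (0.0484) and array weights (0.0434), and Kpna4 after quantile normalization (0.0421), subtraction of array medians (0.0456) and array weights (0.0434). Of all calls, 71.8% were lower as reported, 60.6% to 78.6% when 1 array was left out, 52.4% without both normoosmotic replicates 1 and 3, and 66.0% to 77.7% under the other alternatives. The correction for protein length was not run; the trend on level alone, chosen after seeing the data, was removed in its place and left 4 members lower, 1 higher and 3 other transport genes lower, Nxf1 losing its call (0.0516).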
